A study of Mus musculus with 167 samples.

Results

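The expression of 10 genes that low oxygen is known to induce, written here as the hypoxia response genes, was followed across asbestos-induced mouse tumours. They were chosen by symbol and not by their measured values: the glucose transporter Slc2a1, the glycolytic enzymes Hk2, Pgk1 and Ldha, the carbonic anhydrase Car9, the peptide precursor Adm, the mitochondrial protein Bnip3, the prolyl hydroxylase Egln3, and Ndrg1 and Ankrd37. All 10 were found among the 36118 genes of the count table, and all 10 passed the filter on low counts in every test. The tumours came from 35 crosses in which Collaborative Cross (CC) males, each of a different recombinant inbred strain, were mated to MexTAg females. The MexTAg transgene puts the large T antigen of SV40, an oncoprotein, under control of the promoter of the mesothelin gene, which mesothelial cells use, so every mouse of the study had a MexTAg parent. Every mouse also received asbestos (Wittenoom crocidolite), as 2 intraperitoneal injections of 3 mg given a month apart, and no further treatment. The labels give no ages. By the survival label, 83 mice were above the median and 36 below, and 52 of the 167 tumours came from the mice below.

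When oxygen is short, the prolyl hydroxylases of the Egln family no longer mark the alpha subunits of hypoxia-inducible factor (HIF) for destruction, and HIF binds short DNA motifs near its target genes. The targets raise glucose uptake and glycolysis, export acid, open vessels and clear mitochondria. Solid tumours with poorly perfused regions are well known for this response, and in a whole tumour the measured level averages over such regions and the rest.

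The short motif bound by HIF has the core ACGTG or GCGTG, and it was looked for in the 250 bases before each RefSeq start site (GRCm38.p6). The 10 genes were listed because low oxygen is known to induce them, so matches near them are no separate finding. The 2 words were searched on both strands, where their other-strand forms read CACGT and CACGC, and a CACGTG counts on both strands. Of the 10 genes, 9 had a window in the promoter table, and Ndrg1 was not among them. All 9 held at least 1 match and 7 held at least 2, while 41.5% of 27025 genes held at least 1 match in a window. Counted per window and not per gene, 38.6% of 32851 windows of the same length held at least 1 match and 16.7% at least 2. The share of genes with at least 2 matches in a window was not counted. Ldha and Bnip3 had the most matches of the 9, with 5 each, and Car9 and Egln3 had 1 each. The 30 bases around the match nearest to the start site are printed for 6 genes that show the spread of its position, 5′ to 3′ on the gene's own strand, with the motif in capitals.
Slc2a1, chr4:119108696-119108725, plus strand: agtcccgccccggACGTGctccccaggccc
Ldha, chr7:46845757-46845786, plus strand: ACGTGggttcccgCACGTccgctgggctcc
Pgk1, chrX:106186956-106186985, plus strand: caaatggaagtagCACGTctcactagtctc
Bnip3, chr7:138909525-138909554, minus strand: gggctccgccgccGCGTGcgtcccgccccg
Egln3, chr12:54204087-54204116, minus strand: atgtgcatctcagACGTGagatccaggttt
Ankrd37, chr8:45999851-45999880, minus strand: ggctgcacatgtcagtgtttgggtACGTGa
The nearest match lay 6 bases before the start site in Ankrd37, 34 in Ldha, 35 in Bnip3, 36 in Slc2a1, 131 in Pgk1 and 229 in Egln3. GENCODE starts some of these genes further upstream than RefSeq, so the Ldha and Ankrd37 stretches lie inside the gene as GENCODE draws it, with 0 and 17 of their 30 bases in an exon, and 15 bases of the Slc2a1 stretch are exonic. A match is a stretch of letters, and these data hold no measurement of binding.

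Each library was made from a whole tumour and held between 11138491 and 35399287 estimated counts (median 22539831). Of the 119 mice, 84 gave 1 tumour and 35 gave between them 83 tumours, with up to 6 from 1 mouse. Levels are log2 CPM, the log2 of the counts scaled to the same normalised library size with a prior count of 2, and the mouse, not the tumour, was the replicate for survival and strain. Beyond mouse and strain names the labels do not say which animals shared a litter, cage or day. Of 167 libraries, 19 took over 1% of their counts from markers of another tissue, most often skeletal muscle in 9 and hepatocytes in 7. In 1 of them, LOX-B4 tumour 3, reproductive tract genes took 44% of the counts. Another 6 libraries, each a tumour of a mouse with several, were nearer in expression to another strain than to the strain of their label, out of 162 that could be compared: Rogan-C3 tumour 2, LOX-D1 tumour 2, LAT-F5 tumour 2, LAT-D3 tumour 2, CC059-F2 tumour 2 and MEE-A3 tumour 1. The counts of genes passing, the variance shares, the correlations between the 10 genes and the ranges within mice are also given without them, while strain ranks and marker correlations include them. The mesothelial origin in the labels was checked on 10 markers. Msln (mesothelin) was at or above 1 CPM in all libraries but 1 (median 16.7 CPM), and Krt8 and Krt18 had medians of 57.2 and 55.3 CPM. Calb2 (calretinin) was at 0 in 61 libraries, with a median of 0.0494 CPM. The remaining markers had medians from 2.34 (Lrrn4) to 7.41 CPM (Wt1). They were under 1 CPM in 42 libraries for Lrrn4, 19 for Upk1b, 14 for Wt1, 13 for Upk3b, 11 for Krt19 and 3 for Krt7.

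Slc2a1, the glucose transporter GLUT1 (ENSMUSG00000028645, GRCm38 chr4:119108711-119137983, plus strand), ranged widely in both survival classes. In the 83 mice above median survival it was lowest at 4.43 in KAV-G2, had a median of 6.21 and was highest at 9.68 in VIT-A2 (log2 CPM). In the 36 mice below, the values were 4.53, 5.92 and 9.16. No mouse below lay outside the range of the mice above, and 14 of 36 lay over their median. The difference, below minus above, was -0.35 ± 0.26 (log2 fold change, SE, edgeR quasi-likelihood test, adjusted p = 0.799), with a 95% interval from -0.86 to 0.16.

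The 3 glycolytic enzymes had smaller estimated differences over all mice, which were not tested against that of Slc2a1. Hk2 (hexokinase 2, ENSMUSG00000000628, chr6:82725025-82774454, minus strand), which takes the first step of glycolysis, had a median of 5.76 above and 5.81 below, with ranges of 3.19 to 8.53 and 3.37 to 8.71. The lowest mice for Hk2, LAX-E2 above and TAS-I1 below, had tumours rich in hepatocyte transcripts (18.54 and 18.08, log2 summed CPM of 8 markers). Pgk1 (phosphoglycerate kinase 1, ENSMUSG00000062070, chrX:106187100-106203699, plus strand), an ATP-forming step, ran from 6.11 through 8.19 to 10.88 above and from 6.55 through 8.0 to 10.36 below. Ldha (lactate dehydrogenase A, ENSMUSG00000063229, chr7:46841475-46855627, plus strand), which turns pyruvate into lactate, ran from 7.36 through 9.05 to 11.36 above and from 7.48 through 8.95 to 10.17 below. The classes overlapped over nearly their whole range, and 1 mouse below, for Hk2, lay outside the range above. The differences were -0.13 ± 0.22 for Hk2, -0.23 ± 0.17 for Pgk1 and -0.10 ± 0.14 for Ldha (log2, SE, edgeR). Ldha and Pgk1 have near-identical pseudogenes in the table, so the split of reads between copies is uncertain for both.

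Car9 and Adm act outside the cell that makes them. Car9 (ENSMUSG00000028463, chr4:43506966-43513729, plus strand) encodes a carbonic anhydrase of the cell surface that handles acid. It was the least abundant of the 10 per length (median 1.84 CPM per kb, where Ldha, the most abundant, had 162), and ran from -0.35 in CC040-E1 through 2.09 to 7.72 in CC058-B2 above and from 0.04 through 1.70 to 7.16 below. Its highest mouse stood 268-fold over its lowest. Adm (ENSMUSG00000030790, chr7:110627661-110629820, plus strand) encodes adrenomedullin, a peptide that widens vessels. It ran from 1.05 through 3.34 to 7.66 in Rogan-E5 above, and from 0.48 through 3.01 to 7.02 below. The Adm difference of -0.66 ± 0.36 (log2, SE, edgeR, p = 0.0721, adjusted p = 0.621) had the lowest p of the 10, and 11.6% of all genes tested had a lower one. The Car9 difference was -0.49 ± 0.41.

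Bnip3 (ENSMUSG00000078566, chr7:138890836-138909519, minus strand) encodes a protein of the mitochondrial membrane that promotes mitophagy. Its median was 6.22 above and 6.12 below, and it differed by -0.28 ± 0.26 (log2, SE, edgeR). Egln3 (ENSMUSG00000035105, chr12:54178981-54203860, minus strand) encodes a prolyl hydroxylase of HIF alpha that is itself induced by HIF. It varied most, by 413-fold over all mice, from 2.12 through 5.41 to 9.98 above and from 1.51 through 4.91 to 10.20 below, with 2 mice below outside the range above. Ndrg1 (ENSMUSG00000005125, chr15:66929318-66969640, minus strand), a gene of stress and differentiation, had medians of 7.41 and 7.34. Ankrd37 (ENSMUSG00000050914, chr8:45996902-46005707, minus strand), an ankyrin repeat gene, ran from 0.39 through 2.47 to 7.21 above and from -0.01 through 2.06 to 5.41 below. The differences of these last 3 were -0.27 ± 0.37, -0.32 ± 0.31 and -0.43 ± 0.30 (log2, SE, edgeR).

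**Figure D1:**
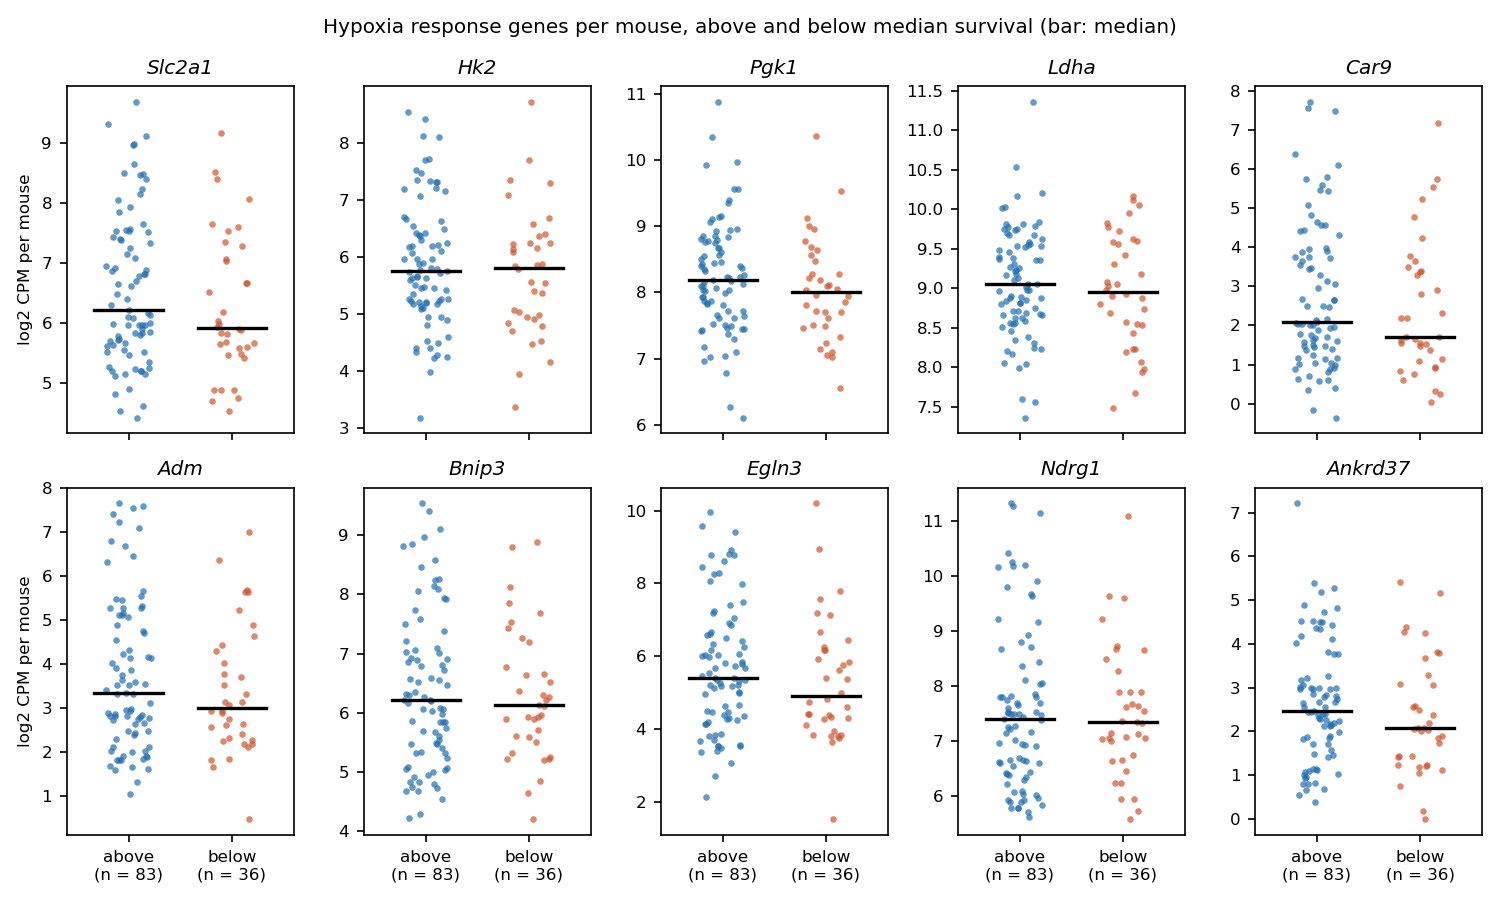
Level of each gene in each mouse (points, log2 CPM, 1 panel per gene with its own axis) for the 83 mice above and the 36 mice below median survival, with the median as a bar. The classes overlap in every panel, and the median below is lower for 9 genes and higher for Hk2 (5.81 against 5.76).

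None of the 10 genes passed in the survival comparison (edgeR, adjusted p under 0.05). None had an unadjusted p under 0.05 either, beside 9.03% of all genes. Over all genes, 1.56% of 17091 passed, 168 higher and 99 lower below the median. That balance changed with the libraries used. Without mouse TAS-I1, whose tumour was rich in hepatocyte transcripts, 57 genes passed as higher and 90 as lower. Without the 19 libraries rich in another tissue's markers, 131 passed as higher and 64 as lower. DESeq2 and limma-voom passed 0 of the 10 as well, beside 0.0585% and 0% of all genes. At an unadjusted p under 0.05 they had 1 and 0 of the 10, beside 5.44% and 2.85% of all genes. In edgeR 0 of 10 passed without the 6 libraries nearer another strain as well. All 10 differences were negative, that is lower below median survival, with a median of -0.30 beside -0.02 over all genes tested. The 10 genes are correlated with each other, so their shared sign is not 10 separate observations. Mouse TAS-J2 was the highest mouse below median survival for 9 of the 10 genes. Without it, a choice made after the values were seen, the differences became -0.98 for Car9, -0.92 for Adm, -0.84 for Egln3 and -0.63 for Ndrg1, and none of the 10 passed (lowest adjusted p = 0.277, Adm, edgeR), beside 1.63% of all genes.

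Strain and survival class were unevenly spread, since 13 strains held mice of both classes. In their 57 mice, 35 above and 22 below, the comparison was repeated with strain as a covariate. Again 0 of 10 passed in edgeR, beside 0% of 16481 genes, of which DESeq2 passed 0.394% and limma-voom 0%. At an unadjusted p under 0.05 stood 3 of the 10, beside 11.4% of all genes. DESeq2 and limma-voom also passed none of the 10, with 3 and 4 at an unadjusted p under 0.05, beside 16.2% and 8.49% of all genes. The 3 in edgeR, also 3 of 10 without the 6 libraries nearer another strain, were Ankrd37 at -0.86 ± 0.39 (adjusted p = 0.424), Ldha at -0.45 ± 0.18 (adjusted p = 0.412) and Pgk1 at -0.44 ± 0.19 (adjusted p = 0.422), all as log2 below minus above with SE from edgeR. Ldha thus had a difference of -0.10 over all mice and of -0.45 within strains, where both the set of mice and the covariate differ. The median of the 10 was -0.44, beside -0.01 over all genes. Hk2 had the smallest difference, -0.04 ± 0.25. Its sign turned (0.11) without 8 strains that earlier results of these data had set apart (CC001, CC021, CC036, CC058, CC081, GIT, LAX and Piping). The other 9 were negative in all 11 settings, the main fit among them. Of these settings, leaving out TAS-J2 could change nothing, as all TAS mice were below median survival and none entered this comparison.

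Over the 25 strains that had 3 or more mice, 7 of 10 passed the strain test in edgeR, beside 69% of 20687 genes. Ndrg1 had the lowest p (adjusted p = 0.000204), followed by Egln3 (0.00781), Bnip3 (0.0144), Car9 (0.0152), Adm (0.0176), Slc2a1 (0.0289) and Pgk1 (0.0458). Ankrd37 (0.0914), Hk2 (0.261) and Ldha (0.313) did not pass. In limma-voom 1 of 10 passed, Ndrg1 (adjusted p = 0.0134), beside 50.4% of genes, and in DESeq2 8 passed, with Ankrd37 added, beside 78.4%. The share of the 10 was thus close to that of all genes in edgeR and DESeq2 and under it in limma-voom. The same 7 passed in edgeR without the 6 libraries nearer another strain, beside 69.9% of genes. Without mouse TAS-J2, 9 passed in edgeR, beside 69.2% of genes, with Hk2 and Ankrd37 both at an adjusted p of 0.0170. Without the same 8 strains, 3 passed, Bnip3, Egln3 and Ndrg1, beside 57.7% of genes.

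Ndrg1 shows both how far strains lay apart and how wide the high ones were. Its highest strain, CC001, had 7.43, 9.80 and 11.31 in its 3 mice (log2 CPM), and its lowest, CC060, had 5.78, 6.04 and 6.07. The groups did not overlap, and the means were 9.51 ± 1.95 and 5.96 ± 0.16 (SD, n = 3 each), 11.7-fold apart. Egln3 was highest in CC021 at 7.10 ± 1.47 (SD, n = 3) and lowest in CC044 at 4.09 ± 0.78 (SD, n = 7), again without overlap. Slc2a1 was highest in CC058 at 7.61 ± 2.09 and lowest in KAV at 4.89 ± 0.65 (SD, n = 3 each), and these overlapped. In CC058 the 3 mice had 5.20, 8.64 and 8.98 for Slc2a1 and 0.63, 4.83 and 7.72 for Car9, so that 1 of the 3 was low for both.

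CC001 and CC021 stood among the 5 highest strains for 8 of 10 genes, and CC046 and CC058 for 7. KAV stood among the 5 lowest for 7 genes, and CC036 and CC081 for 6. CC001, CC021, CC058, CC036 and CC081 are among the 8 strains that earlier results had set apart, and CC046 and KAV are not. Ldha had the narrowest span of strain means, from 7.99 ± 0.34 in KAV (SD, n = 3) to 9.60 ± 0.55 in CC021 (SD, n = 3). With the strains in order of their means, neighbours overlapped in 24 of 24 steps for each of the 10 genes. The highest and the lowest strain did not overlap for Ldha, Pgk1, Egln3, Ndrg1 and Ankrd37. For each gene these strains were picked as the ends of an order made from the same values, so the gap is no test. The share of all genes with such a gap was not counted, and Ldha and Ankrd37 did not pass the strain test in edgeR.

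**Figure D2:**
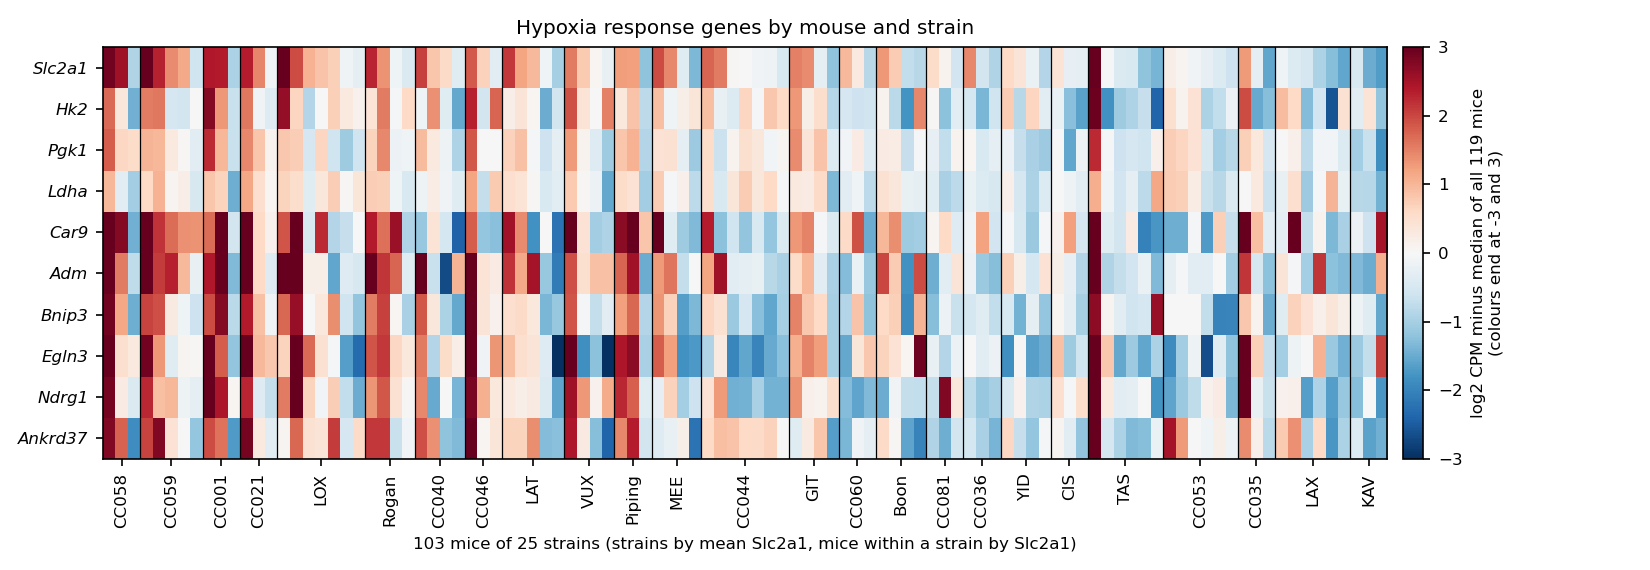
Each column is 1 mouse of the 25 strains with 3 or more mice (strains ordered by mean Slc2a1, mice by Slc2a1 within a strain), each line a gene, and the colour its log2 CPM minus the gene's median over all 119 mice, with the scale ending 3 log2 units to either side. Many columns are red or blue for most genes, and mice at both ends of the scale stand side by side in strains such as CC058 and TAS.

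The same few mice were highest for most of the genes. CC058-B2 and TAS-J2 were among the 10 highest of 119 mice for all 10 genes, VIT-A2 for 9, and CC021-C1, CC046-J5 and TOFU-C3 for 7. These mice were picked out after their values were seen. TAS-J2 stood far from the 5 other mice of its cross, all of them below median survival, for most of the genes but not for Ldha and Bnip3. TAS-I1 had 10.17 for Ldha, where TAS-J2 had 10.12, and 8.81 for Bnip3, where TAS-J2 had 8.88. The tumour of TAS-I1 was rich in hepatocyte transcripts. Its 8 hepatocyte markers summed to 18.08 (log2 summed CPM), beside a median of 8.07 over all mice. The part of liver RNA in the levels of TAS-I1 was not tested. TAS-J2 had 9.16 for Slc2a1, where the others had 4.70 to 6.04, and 8.71 for Hk2, where they had 3.37 to 5.07 (log2 CPM). For Egln3 it had 10.20, where the others had 3.81 to 6.16. VIT gave 1 mouse of each class: VIT-A2, above, had 9.68 for Slc2a1 and 7.21 for Ankrd37, and VIT-K2, below, had 5.41 and 1.74.

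Most of these mice also had few endothelial transcripts, measured as the summed level of 8 vessel genes such as Pecam1 and Cdh5, none of them at 0 in any library. CC058-B2 had the lowest endothelial sum of all 119 mice (5.0, log2 summed CPM), TAS-J2 the next (5.07), VIT-A2 was the fifth from the bottom (5.60) and CC021-C1 the seventh (5.77), with a median over all mice of 8.33. CC046-J5, by contrast, was at 9.17. Over the 119 mice the endothelial sum ran from 5.0 through 8.27 to 10.06 above and from 5.07 through 8.40 to 10.58 below. Its correlation with the level was negative for 10 of 10 genes, of which 7 passed by Spearman and 10 by Pearson (permutation tests adjusted over 160 pairs of a gene and a marker list). It was strongest for Pgk1, with rho = -0.52 and r = -0.60 (both permutation p = 1e-05, the smallest the resamples can give), and r = -0.55 without the 2 mice farthest from the median of Pgk1. For Ndrg1, rho was -0.03 and r was -0.34 (permutation p = 0.774 and 0.0001). In a whole tumour, fewer cells of a type and less RNA per cell cannot be told apart, and the part of vessel content in the levels was not tested. The share of all genes that would pass with the endothelial sum was not counted. As the 10 genes are correlated with each other, their counts are not separate observations and do not set these genes apart from others.

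Markers of other cells moved with the 10 genes as well. The summed level of the 10 mesothelial markers was positively correlated with 10 of 10 genes, and 8 passed by Spearman, led by Egln3 (rho = 0.43, r = 0.45, both permutation p = 1e-05). That sum ran from 3.65 through 8.58 to 12.34 above median survival and from 4.62 through 8.09 to 11.87 below (log2 summed CPM). T cell markers were negatively correlated with Ndrg1 (rho = -0.38), Bnip3 (-0.37), Egln3 (-0.30) and Slc2a1 (-0.26), and cell cycle genes with Ndrg1 (-0.42) and Bnip3 (-0.38), all past the adjusted threshold by permutation test. Hk2, which muscle expresses, was positively correlated with the skeletal muscle list (rho = 0.25, adjusted permutation p = 0.0408). Fibroblast genes passed with Ldha (rho = -0.33), Ankrd37 (-0.29) and Ndrg1 (0.24), erythroid genes with 2 of the 10, and adipocyte, B cell, pancreatic acinar and reproductive tract genes with 1 each. None of the 10 passed with the macrophage, neutrophil, hepatocyte, intestinal or kidney list. The part of these cells in the levels was not tested. For these lists too, the share of all genes that would pass was not counted.

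By the median over the 10 genes, most of the variance lay between mice of a strain and between tumours of a mouse, as it did over all genes. Over all 167 tumours the variance of log2 CPM was split into parts between strains, between mice of a strain and between tumours of a mouse, with 34, 84 and 48 degrees of freedom in that order. The share between strains had a median of 4.82% over the 10 genes (jackknife SE 10.1), beside 16.1% over all 20687 genes, and ran from 0.899% for Adm to 18.1% for Ndrg1. Single mice moved these shares: without CC001-D1 that of Adm was 5.57%, that of Slc2a1 went from 1.62% to 7.16% and that of Bnip3 from 5.23% to 11.2%. Without TAS-J2 the share of Hk2 went from 2.78% to 10.4% and that of Car9 from 8.44% to 13%, and without VUX-D1 that of Egln3 went from 11.1% to 19.2%. Without VIT-K2 the share was 10.9% for Ldha, 14.6% for Pgk1 and 8.33% for Ankrd37, from 4.41%, 8.75% and 1.12%. The share between mice of a strain had a median of 48.4%, beside 40.4%. Between tumours of a mouse lay 43.5% (jackknife SE 7.63), beside 38.9%. Pgk1 had the largest share between its tumours, 59.9%, and Hk2 the smallest, 33%. In absolute terms the SD between tumours of a mouse had a median of 0.82 log2 units over the 10 genes and of 0.59 over all genes, and was highest for Adm (1.24) and Car9 (1.16). Without the 6 libraries nearer another strain the 3 medians of the shares were 4.98%, 57.1% and 36.7%. The medians over all genes were not computed without these libraries.

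**Figure D3:**
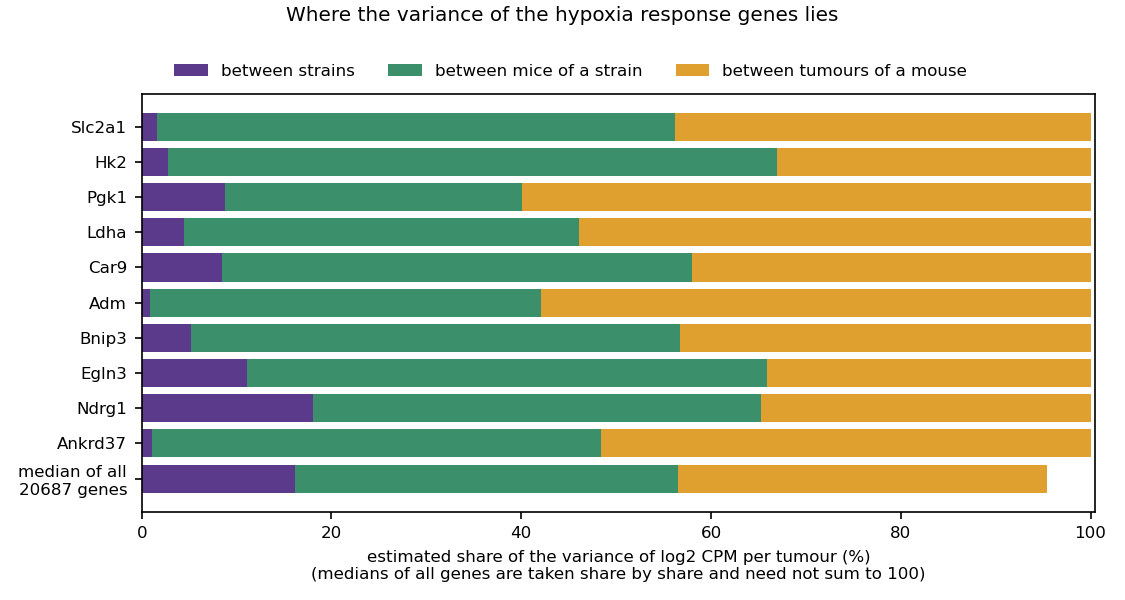
Bars give the estimated share of the variance of log2 CPM per tumour (%) that lay between strains, between mice of a strain and between tumours of a mouse, for each gene and, in the last bar, as the median of each share over all 20687 genes. The part between strains is under that median of 16.1% for 9 of the genes and over it for Ndrg1 (18.1%).

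Whether mice of 1 strain differed by more than the tumours of 1 mouse was tested in 58 tumours of 25 mice from 10 strains. In edgeR 10 of 10 genes passed, beside 63.3% of 20305 genes, with the lowest adjusted p for Bnip3 (0.000276), Car9 (0.000851) and Slc2a1 (0.00115) and the highest for Pgk1 (0.0487). In limma-voom 5 of 10 passed, Slc2a1, Ldha, Hk2, Car9 and Bnip3, beside 55.5% of genes. Without the 6 libraries nearer another strain 9 passed in edgeR, beside 61.7% of genes, and Pgk1 had an adjusted p of 0.0516. Without the 19 libraries rich in another tissue's markers 9 passed, beside 57.9% of genes, and Egln3 had 0.0709.

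In the 35 mice with several tumours, the range between the tumours of a mouse had a median of 0.40 log2 units for Ldha, 0.49 for Pgk1 and 0.54 for Hk2, and of 1.05 for Ankrd37, 1.11 for Bnip3 and 1.32 for Car9. Ranges over 1 log2 unit were found in 8 of 35 mice for Pgk1 and in 23 of 35 for Car9. Without the 6 libraries nearer another strain, 30 mice kept several tumours, the median range was 0.79 for Ankrd37 and 1.12 for Car9, and 6 and 18 of 30 mice had a range over 1 for Pgk1 and Car9. The 3 tumours of CC059-E2, a mouse below median survival, had 9.72, 6.75 and 7.34 for Slc2a1, 10.36, 6.89 and 8.62 for Pgk1, and 5.84, 1.58 and 1.96 for Car9 (log2 CPM, tumours 1, 2 and 3). Tumour 1 was the highest of the 3 for 9 of 10 genes, and tumour 2 for Ankrd37. The Slc2a1 values of this mouse span 7.83-fold and its Pgk1 values 11.1-fold, each the widest range of that gene within any mouse. Car9 had its widest range in Boon-H2, from 0.41 to 4.69, and Adm in MEE-B1, from 1.32 to 5.75.

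Some of the widest ranges rest on doubtful libraries. Egln3 ranged most in LOX-B4, from 2.95 to 7.61, a mouse whose tumour 3 is the library with 44% reproductive tract counts. Ldha, Bnip3 and Ankrd37 ranged most in Rogan-C3, by 5.07-fold, 12.1-fold and 16.1-fold, and its tumour 2 was nearer to CC046 than to Rogan. Hk2 ranged most in MEE-A3, by 4.58-fold, and its tumour 1 was nearer to CC044 than to MEE. Without the 6 libraries, the widest range was 3.17-fold for Hk2 in CC001-H2, 4.08-fold for Ldha in LOX-B4, and 5.41-fold for Bnip3 and 6.73-fold for Ankrd37, both in CC059-E2.

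**Figure D4:**
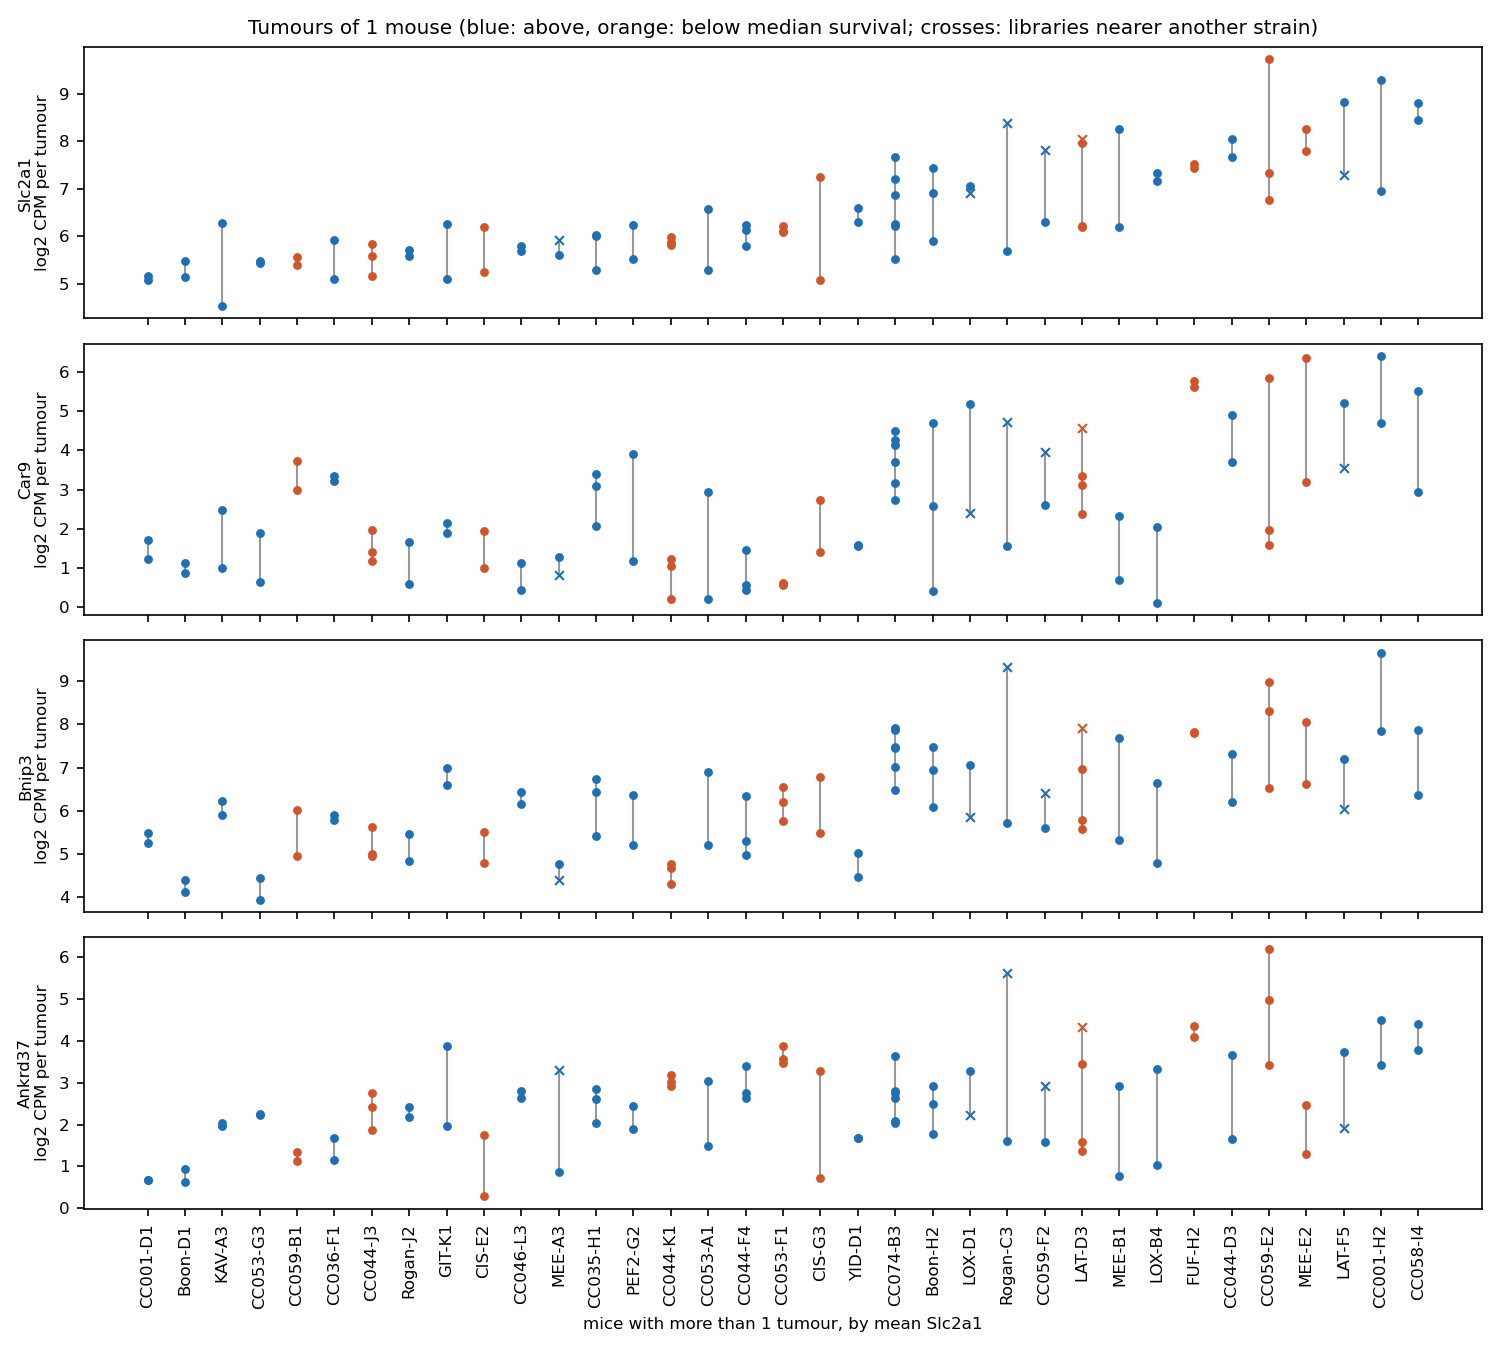
Each column is 1 of the 35 mice with more than 1 tumour, ordered by mean Slc2a1, each point a tumour (log2 CPM; blue above and orange below median survival), with a grey line from the lowest to the highest. Crosses mark the 6 libraries nearer another strain, and the lines are longest for Car9, with a median range of 1.32 log2 units.

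The 10 genes moved together within a mouse. After subtraction of the mouse's mean, 45 of 45 pairs were positively correlated over the 83 tumours of 35 mice, from r = 0.39 for Hk2 with Car9 to r = 0.83 for Slc2a1 with Adm (median 0.66). Over the 72 tumours of 30 mice left without the libraries nearer another strain, the median was 0.63. These are descriptions without a test, as tumours of a mouse share their host. The same tumour was highest for at least 8 of the 10 genes in 15 of 35 mice, and for all 10 in 7, each of these with 2 tumours. Of those 7, CC059-F2, LAT-F5 and Rogan-C3 each held a library nearer another strain. The counts without the 6 libraries were 13 and 5 of 30 mice, and 4 of the 5 had 2 tumours.

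The levels went together over mice too. All 45 pairs were positively correlated over 119 mice and passed a permutation test adjusted over the 45 pairs, with Pearson's r from 0.39 to 0.78 (median 0.65) and Spearman's rho from 0.30 to 0.78 (median 0.59). The strongest pair, Ldha with Pgk1, had r = 0.78 and rho = 0.78 (permutation p = 1e-05 for both, adjusted 1e-05 and 1.1e-05), and r = 0.75 without the 2 mice farthest from the median of Ldha. The weakest, Ldha with Ndrg1, had r = 0.39 (permutation p = 2e-05) and rho = 0.30 (permutation p = 0.0007), both the same after adjustment, and r = 0.36 without the 2 mice farthest from the median of Ldha. With strain means subtracted, in the mice of those 25 strains and with permutation within strains, the 45 pairs again passed, from r = 0.31 to r = 0.78 (median 0.64). Without the 6 libraries nearer another strain the 45 pairs passed in all 3 measures, with medians of 0.66 for r, 0.58 for rho and 0.65 for r within strains. Without the 8 strains 44 of 45 passed, and Ldha with Ndrg1 had r = 0.18 (adjusted permutation p = 0.201).

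**Figure D5:**
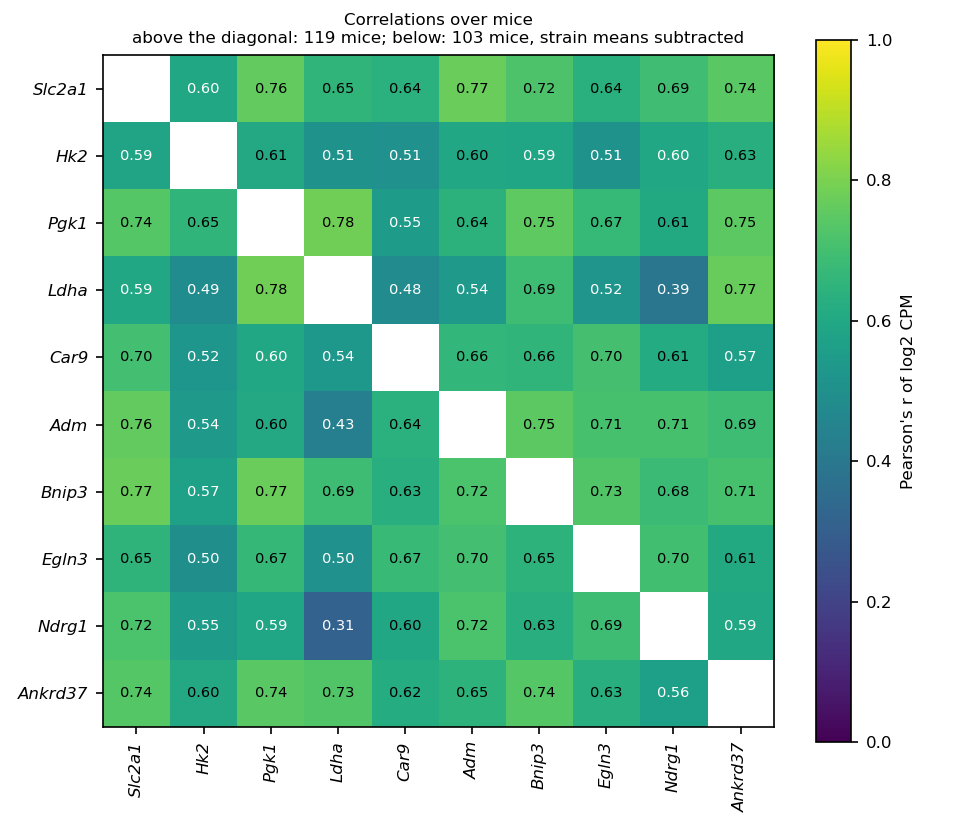
Pearson's r of log2 CPM for each pair of the 10 genes, over 119 mice above the diagonal and over the mice of 25 strains with strain means subtracted below it; colour and number give r. Every cell is positive, and Ldha with Ndrg1 is the lowest on both sides (0.39 and 0.31).

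The genes most like each of the 10 over the 119 mice were looked for among 12235 genes with a mean of at least 5 CPM. The measure was Spearman's rho, given as a description, and its median over the candidates lay between -0.02 and 0.02. For Slc2a1 the 3 highest were the glycolytic enzyme genes Pkm (0.82), Pgam1 (0.81) and Pfkl (0.77). For Ldha they were Tpi1 (0.84), Pgk1 (0.78) and Pfkl (0.76), and for Pgk1 they were Pgam1 (0.81), Ldha (0.78) and Ero1l (0.76), an oxidase of the endoplasmic reticulum. For Hk2 they were Aldoa (0.73), Pfkfb3 (0.68) and Map2k1 (0.68), and for Ankrd37 they were Pfkl (0.81), Gpi1 (0.77) and Ldha (0.75).

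For Bnip3 the 3 highest were its paralogue Bnip3l, the kinase gene Pdk1 and Fam162a (0.74 each), and for Egln3 they were Bnip3 (0.70), Ero1l (0.69) and its relative Egln1 (0.66). For Ndrg1 they were Ier3 (0.77), Mxi1 (0.74) and Maff (0.73), and for Adm they were Ier3 (0.75), Slc2a1 (0.71) and Higd1a (0.70). The lowest values were those of Car9, with Egln3 (0.62), Adm (0.58) and the lactate exporter Slc16a3 (0.58).

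Other genes of the pathway were taken as 3 lists: 10 genes of the HIF system, 19 measured genes of glycolysis and 24 measured other genes induced by low oxygen. In the survival comparison 0 of 10, 0 of 19 and 0 of 24 passed in edgeR, with medians of -0.05, -0.08 and -0.14 (log2, below minus above). DESeq2 and limma-voom also passed none, with 0 and 1 at an unadjusted p under 0.05. In edgeR the neuritin gene Nrn1 alone had an unadjusted p under 0.05 (0.89 ± 0.38, adjusted p = 0.372). Of all genes, 9.03% were under that threshold in edgeR, 5.44% in DESeq2 and 2.85% in limma-voom. Within strains none passed in edgeR, DESeq2 or limma-voom. At an unadjusted p under 0.05 stood 1, 6 and 2 genes of the lists in edgeR, 1, 7 and 4 in DESeq2 and 1, 5 and 4 in limma-voom. The shares of all genes were 11.4%, 16.2% and 8.49% for the 3 tools in that order.

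Between strains 5 of 10, 13 of 19 and 21 of 24 passed in edgeR, beside 69% of all genes, and 3, 8 and 14 in limma-voom, beside 50.4%. In the HIF system the lowest adjusted p in edgeR belonged to the hydroxylase gene Egln2 (1.27e-09), the ubiquitin ligase gene Siah2 (2.56e-07) and Hif3a (0.00104), and the share of variance between strains was 49.1% for Egln2 and 41.3% for Siah2. Hif1a, which encodes the HIF-1 alpha subunit, had 0.227% between strains and 62.3% between mice of a strain. In glycolysis the lowest were Pfkfb4 (0.000382), Gapdh (0.000572) and Eno1 (0.00120), and among the other induced genes they were the lipid droplet gene Hilpda (3e-06), Ero1l (0.000268) and Bnip3l (0.000354). Between mice of a strain 7 of 10, 16 of 19 and 23 of 24 passed in edgeR, beside 63.3% of all genes.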

How the data were processed

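RNA-seq libraries were made from total RNA of 167 whole tumours with a strand-specific mRNA kit, per the labels' protocols. The authors deposited estimated counts per Ensembl gene, made with kallisto 0.46.1 on GRCm38, per the submitters' processing notes, which also name DESeq2 and DESeq. A second deposited table of normalised values was not used here. The counts were rounded to whole numbers and read through column names joined to the labels: 165 columns to 1 sample, and 2 columns, the tumours of mouse GIT-K1, to their survival class only, as their tumour numbers are in neither title. Symbols and positions came from GENCODE M21 (35825 of 36118 IDs), and promoter windows from RefSeq.

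Counts were summed over the tumours of a mouse for the survival and strain tests, which used edgeR 4.0.16 (quasi-likelihood F-test, TMM, filterByExpr, Benjamini-Hochberg over all genes tested, threshold 0.05) in R 4.3.3. The test of mice within strain used counts per tumour. DESeq2 1.42.0 and limma-voom (limma 3.58.1) were alternatives. In simulated data with 100 genes changed by 1 log2 unit, edgeR recovered 99 in the survival comparison and 75 within strain. It recovered 50 between strains and 71 between mice of a strain, and 100 of 100 at 2 log2 units in each comparison. The hypoxia response genes had an SD over all mice from 0.69 for Ldha to 1.82 for Car9 (log2 CPM). Recovery at that spread was not tested, so the counts do not show what change in these genes would have passed. Variance shares (nested method of moments) and correlations (100000 resamples) used log2 CPM with a prior count of 2, in Python 3.11.15 with numpy 2.4.6, pandas 2.3.3 and scipy 1.17.1. A library was called nearer another strain where its correlation with that strain's mean, over the 300 genes that vary most between strains, was higher by more than 0.1. The closest pair of libraries, tumours 1 and 2 of FUF-H2, differed by a chi-square of 2.98 per degree of freedom. That is more than sampling noise, but the next closest pair differed by 17.97, and whether these 2 libraries come from the same tumour was not tested. They enter the survival test as 1 mouse and the variance shares and within-mouse values as 2 tumours, and the shares without this mouse lie in the ranges given for leaving out each mouse.

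The 10 genes, the pathway and marker lists and the tests were chosen with earlier results of these data known. All 10 genes are named, with their highest and lowest mice and strains. From each pathway list the genes that passed in a survival test would be named, and otherwise the 3 of lowest p between strains. For each of the 10 genes, the 3 genes most like it are named. Other genes, mice and tumours were picked out after their values were seen. In the survival and strain tests and the correlations over mice, p-values set an effect against the spread between these mice. In the test of mice within strain they set it against the spread between tumours of a mouse. Precision is set by the number of mice and tumours rather than by depth.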

Additional observations from a re-analysis of the deposited data

Results flagged for a closer look

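The highest and lowest mouse of each strain with 4 to 7 mice, and the highest and lowest tumour of each mouse with at least 4 tumours, were compared with the others by Dixon's gap test. Of 140 combinations of gene and strain 14 stood out, and of 20 combinations of gene and mouse 0, where chance marks about 1 in 20. The genes are correlated, so several marks on 1 mouse are not independent.

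TAS-J2 was marked as the highest of the 6 TAS mice for 7 genes, each given as log2 CPM with the next highest mouse. Slc2a1 stood at 9.16 (next 6.04), Pgk1 at 10.36 (next 8.27) and Hk2 at 8.71 (next 5.07). Car9 stood at 7.16 (next 2.32) and Adm at 7.02 (next 2.95). Egln3 stood at 10.20 (next 6.16) and Ankrd37 at 5.41 (next 2.20).

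Car9 was also high in CC044-D3, at 4.41 where the next CC044 mouse had 1.63, and in LAX-G3, at 5.59 where the next LAX mouse had 2.18. The other marked mice were low. GIT-G2 had 7.68 for Ldha and 4.37 for Egln3, where the next lowest GIT mice had 9.26 and 6.43. Bnip3 was at 4.29 in Boon-D1 (next lowest 6.80), Adm at 2.12 in CC053-G3 (next lowest 2.80) and Ankrd37 at 2.38 in CC044-J3 (next lowest 2.97).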

How the results depend on the processing

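The alternatives were DESeq2, limma-voom, DESeq2's size factors, no filter on low counts, 1 tumour per mouse, a prior count of 0.5, strain as a covariate, and leaving out sets of libraries, strains or mice. Leaving out the libraries nearer another strain, and leaving out TAS-J2, were added after the data were seen. The number of the 10 genes that passed was 0 under every alternative of both survival comparisons. Between strains it went from 7 in edgeR to 8 in DESeq2, 9 without TAS-J2, 1 in limma-voom and 3 without the 8 strains, and between mice of a strain from 10 to 5 in limma-voom. Between strains, limma-voom passed 3 of the HIF system (5 in edgeR) and 8 of glycolysis (13 in edgeR). The within-strain difference of Hk2 turned from -0.04 to 0.11 without the 8 strains. Leaving out each mouse in turn, the median share of variance between strains ran from 3.19% to 9.77% and that between tumours from 39.6% to 45.4%. Pgk1 did not pass between strains without a filter (adjusted p = 0.0571, edgeR) or with 1 tumour per mouse (0.0521), nor did Car9 without the 17 libraries of highest library number (0.0583). The cause of these changes was not tested. No paired analysis was possible because the numbers in the titles name mice and tumours and do not pair mice across classes or strains. The number of mice limits the precision: in the survival comparison the 95% interval of Adm ran from -1.36 to 0.05 (log2) and that of Ldha from -0.38 to 0.17.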
